A study of Ericerus pela with 8 samples.

Results

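Transcript levels in mature adult females of the wax scale insect Ericerus pela were compared with those in younger females. The series held 8 RNA-seq libraries, and 5 of them, from 5 female stages, enter the comparison. The 2 mature libraries were made from middle-stage and later-stage adult females (called middle and late below), and the 3 younger libraries from first-instar larvae, second-instar larvae and early-stage adults. The other 3 libraries came from male larvae of both instars and from male adults and are used only as values beside the results. Each stage had 1 library of total RNA from washed, homogenised insects. The labels name no treatment or strain and leave out how many insects went into a library, so stage and collection cannot be told apart. A unigene, an assembled transcript fragment, counted as higher or lower when both mature libraries lay on the same side of all 3 younger ones.

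A female scale insect has no pupa and no winged stage. She keeps a larva-like, wingless body, settles with her mouthparts in the bark of the host tree and stays there. After her last moult she mates, swells as her ovaries fill, and her back hardens into a shell under which the eggs collect. Yolk proteins made outside the ovary are carried in the haemolymph and taken into oocytes by the vitellogenin receptor. In insects, small RNAs bound by Piwi-class proteins hold transposons in check in the germline. New cuticle is made in pulses under the control of ecdysteroids before each moult, and juvenile hormone governs moults in larvae and egg maturation in adults of many insects. Thick wax is secreted in this species chiefly by male larvae of the second instar.

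The 5 libraries held between 1.46 M reads (middle adults) and 2.2 M reads (first-instar larvae) assigned to unigenes, where M stands for 1000000. The 10 most abundant unigenes took 0.323% to 0.626% of the reads in the younger libraries, 1.53% in the middle and 1.56% in the late adults. Levels are CPM, the reads of a unigene scaled to a library of 1 M reads, and a count of 0 allows a level of up to 1.36 to 2.05 CPM in these libraries. Across unigenes with at least 20 reads in any female library, the rank correlation between the mature libraries was 0.736 and those among the younger libraries were 0.774 to 0.842. The lowest rank correlation, 0.361, was between first-instar larvae and late adults. These correlations are across unigenes, which are not independent replicates.

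With the stages of a class serving as its samples, 45910 unigenes were tested with edgeR's quasi-likelihood test and Benjamini-Hochberg adjustment. Past an adjusted p of 0.05, where a unigene is termed called, 1517 unigenes (3.3%) were higher and 4072 (8.87%) were lower in mature females, and all 5589 had both mature libraries on 1 side of the younger ones. The median log2 fold change over the tested unigenes was -0.05. Side alone, over the 39522 unigenes with at least 20 reads, gave 8389 higher (21.2%) and 11153 lower (28.2%). A gap of at least 4-fold between the nearest libraries, with 1 CPM added, was present in 364 higher (0.921%) and 1316 lower unigenes (3.33%). The spread in the test is the spread between stages of a class, so its p-values say how far apart the classes are relative to that spread, and cultures or animals of the same stage were not compared. An exact permutation test of 2 against 3 libraries cannot go below a two-sided p of 0.2, so no single unigene was tested that way. The number called moved with each library left out. It was 389 higher and 1379 lower without the first-instar larvae, 660 and 2756 without the second-instar larvae, and 163 and 496 without the early adults. It was 3246 and 6262 without the middle adults and 1001 and 1410 without the late adults. In a fit that leaves out a mature library, the lone mature library is assumed to vary like the younger ones.

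**Figure D1:**
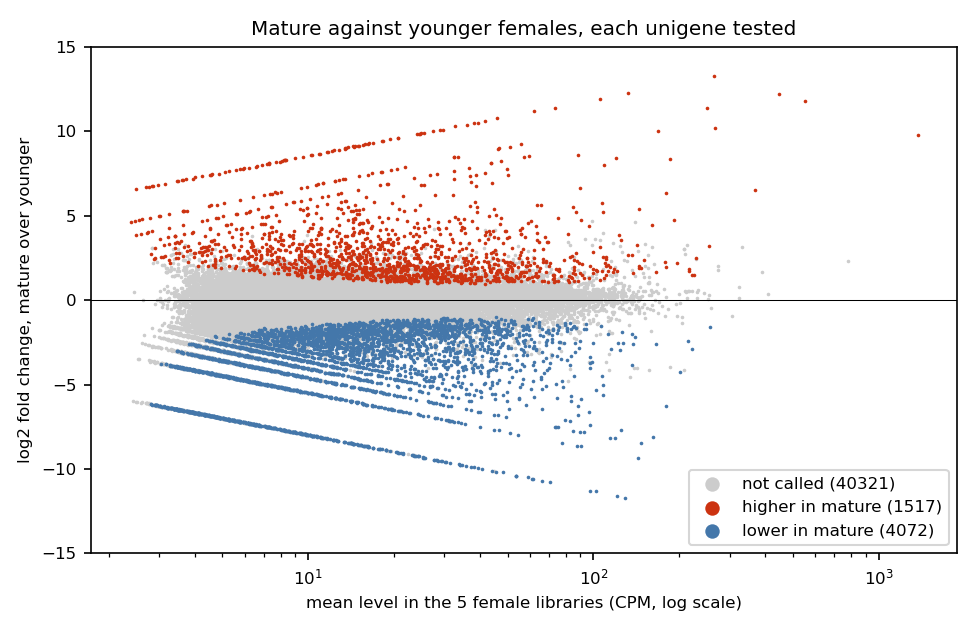
Each point is 1 of the 45910 unigenes tested, placed by its mean level in the 5 female libraries (x axis, CPM, log scale) and its fitted log2 fold change of mature over younger females (y axis). Red points are the 1517 called higher and blue points the 4072 called lower at an adjusted p of 0.05; the sloping rows of points at the top and bottom are unigenes with 0 or few reads in a whole class, whose fitted fold depends on the fit.

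Of the higher unigenes, 45.9% had a protein match and 460 a named protein; of the lower ones, 33.7% and 725. The results below turn on these. Among the 21182 tested unigenes with a match, 696 were higher (3.29%) and 1374 lower (6.49%), with a median log2 fold change of 0.13, and list counts are read against these shares. The 24 gene lists were built from words in the match descriptions, and unigenes of a list or family may be pieces of 1 gene or share reads, so they are not independent measurements. In RNA taken from many tissues together, fewer cells of a type and less RNA per cell cannot be told apart. For each unigene, levels are given in the order first instar, second instar and early adult for the younger libraries, and middle and late for the mature ones. Where a class had 0 reads, the fold is a bound computed at 3 reads per library, and where it had 1 to 3 reads, the ratio of pooled scaled reads, higher class over lower class, is given with an exact 95% interval for counting error alone. Adjusted p-values are from the edgeR quasi-likelihood test throughout. A unigene at or near 0 in a class could pass the filter on low counts only through the other class. The side of such a unigene was fixed before the test. The 5 counts given after the word leave-one-out are the members called when the first-instar, second-instar, early, middle and late library was left out, in that order.

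**Figure D2:**
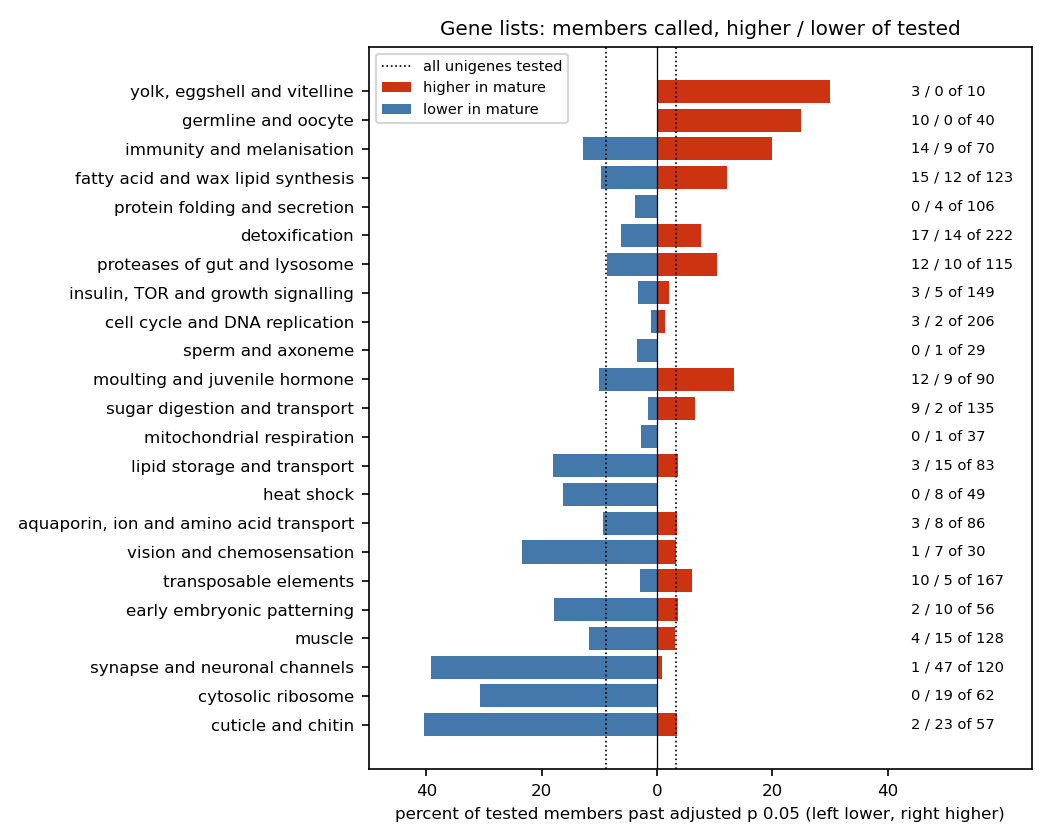
Bars show, for each gene list with at least 10 tested members, the percent of tested members past an adjusted p of 0.05, lower in mature females to the left (blue) and higher to the right (red), with the counts higher and lower of those tested printed at the right edge. Dotted lines mark 3.3% and 8.87%, the shares over all unigenes tested; the yolk and germline lists have bars on the right alone, and the cuticle, synapse and ribosome lists have the longest bars on the left.

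Of the egg-related lists, 3 of 10 tested yolk and eggshell members and 10 of 40 tested germline members were higher in mature females. The vitellogenin receptor, which brings yolk protein into oocytes, had 12 unigenes, 10 of them with at least 20 reads. Only 2 passed the filter on low counts, and both were higher. Reads in the younger libraries were too few for any of the 12 to pass through them, so this side was fixed before the test. Unigene157486_FOB stood at 0.909, 0.521 and 1.01 CPM in younger and 13.0 and 583 CPM in mature females. Both mature libraries lay above the younger ones, and the late library was far above the middle one (log2 fold change 8.40 ± 1.5 SE, adjusted p = 0.0202). Unigene148888_FOB stood at 0.455, 0.521 and 0.503 CPM in younger and 7.53 and 239 CPM in mature females, with the same order of libraries (ratio 279.6, counting interval 95.1 to 1361, adjusted p = 0.0211). The number of receptor unigenes called higher was 0 without the first-instar, 0 without the second-instar, 0 without the early, 11 without the middle and 1 without the late library. Summed over the 12, the receptor was at 2.27, 1.04 and 2.01 CPM in younger and 35.6 and 1306 CPM in mature females. Among the untested receptor unigenes, Unigene141185_FOB had no read in a younger library and stood at 2.05 and 141 CPM in the middle and late libraries (at least 54.3-fold higher). Male libraries held the 12 unigenes at 6.08, 14.2 and 1.09 CPM in first-instar larvae, second-instar larvae and adults.

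Vitellogenin, the yolk precursor itself, was read in every library, and none of its 4 unigenes passed the edgeR test, with 3 higher at an unadjusted p under 0.05. DESeq2 called 1 of the 4 higher, and edgeR called 3 with no filter on low counts and 3 without the middle adults. Its 4 unigenes summed to 102, 179 and 160.1 CPM in younger and 203 and 446 CPM in mature females, so the late library was highest and the middle library lay only a little above the second-instar and early-adult ones. The largest fitted difference was in Unigene151183_FOB, at 10.5, 38.1 and 34.7 CPM in younger and 51.3 and 137 CPM in mature females (log2 fold change 1.77 ± 0.58 SE, adjusted p = 0.0884). Male second-instar larvae held it at 108 CPM, so reads matching vitellogenin were not confined to females. Nudel, a protease that in flies acts in the vitelline layer around the egg, was higher (Unigene136076_FOB, 1.82, 2.09 and 0.503 CPM in younger and 6.85 and 64.9 CPM in mature females; log2 fold change 4.57 ± 0.94 SE, adjusted p = 0.0262). Chorion peroxidase, an eggshell cross-linking enzyme, had 3 tested unigenes and none past the edgeR test, with 1 lower at an unadjusted p under 0.05 and a median log2 fold change of -0.83. Bicaudal-C, an RNA-binding regulator of oogenesis in flies, had 5 unigenes that summed to 0.909, 0 and 1.01 CPM in younger and 6.85 and 212 CPM in mature females. Ovarian serine protease had 3 unigenes, which summed to 0.455, 0 and 1.01 CPM in younger and 1.37 and 168 CPM in mature females. Neither family passed the filter, and both stood out in the late library alone. The yolk and eggshell list as a whole had 22 members and 10 tested, of which 3 were higher (the receptor unigenes and nudel) and 0 lower, with a median log2 fold change of 1.48. All 3 were at 2.09 CPM or less in the younger libraries and passed the filter through the mature ones. The number higher was 0 without the first-instar, 0 without the second-instar, 0 without the early, 16 without the middle and 1 without the late library, with no filter on low counts it was 17, and by DESeq2 it was 7. No member was lower by DESeq2 and 1 was at an unadjusted edgeR p under 0.05. With no filter on low counts, and without the middle adults, edgeR called 1 member lower.

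The germline and oocyte list had 52 members and 40 tested, of which 10 were higher and 0 lower, with a median log2 fold change of 0.75. DESeq2 also called none lower, and 3 were lower at an unadjusted p under 0.05. Ovarian tumor locus, a deubiquitinase needed for oogenesis in flies, had the widest gap of the list (Unigene154002_FOB, 3.18, 2.61 and 2.52 CPM in younger and 57.5 and 90.1 CPM in mature females). Both mature libraries were high and near each other (log2 fold change 4.70 ± 0.35 SE, adjusted p = 0.00703). The oo18 RNA-binding protein (Orb), which controls translation in fly oocytes, was at 1.36, 1.56 and 1.51 CPM in younger and 69.1 and 22.0 CPM in mature females (Unigene152315_FOB). The middle library was the higher of the mature pair (log2 fold change 4.88 ± 0.59 SE, adjusted p = 0.0113). A nanos-like protein, a repressor of translation in germ cells, was at 2.73, 0.521 and 1.01 CPM in younger and 6.85 and 20.9 CPM in mature females (Unigene145382_FOB; log2 fold change 3.22 ± 0.72 SE, adjusted p = 0.0312).

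Piwi-class proteins, which carry the small RNAs of the germline, made up most of the rest. Aubergine, a Piwi protein named in flies, had 7 unigenes tested and 6 higher, with log2 fold changes of 1.5 to 1.77 among the 6. Their total with the seventh was 122, 163 and 131 CPM in younger and 426 and 400.1 CPM in mature females, so the middle and late libraries were close. A PIWI unigene (Unigene150642_FOB) stood at 0.909, 1.04 and 2.01 CPM in younger and 13.7 and 38.1 CPM in mature females (log2 fold change 4.25 ± 0.60 SE, adjusted p = 0.0141), and 3 other piwi unigenes did not pass the test. Argonaute 3, the Piwi-class partner of Aubergine in flies, fell outside the list's words and is given because its values were seen. Unigene156567_FOB was at 3.18, 5.74 and 4.53 CPM in younger and 54.1 and 104 CPM in mature females (log2 fold change 4.13 ± 0.41 SE, adjusted p = 0.00964), and the second argonaute 3 unigene was also higher (Unigene146028_FOB, ratio 25.7, counting interval 8.21 to 129.6, adjusted p = 0.0141; leave-one-out 2, 2, 1, 2 and 1). Male second-instar larvae held Unigene156567_FOB at 30.2 CPM, between the classes, while male first-instar larvae and adults were at 3.91 and 1.63 CPM. Argonaute-2, the slicer of the antiviral small RNA pathway, had 7 unigenes tested and 5 higher, also chosen after their values were seen. Summed over its 9 unigenes, the level was 131, 139 and 92.1 CPM in younger and 175 and 624 CPM in mature females. The middle library thus lay only a little above the second-instar one. The 5 called had log2 fold changes of 5.79 to 9.05, and any at or near 0 in younger females had its side fixed before the test. Unigene152820_FOB stood at 0.455, 0.521 and 0.503 CPM in younger and 8.90 and 116 CPM in mature females (ratio 141, counting interval 47.6 to 687, adjusted p = 0.0186), and the late library was the highest in all 5. Vasa, an RNA helicase of germ cells, was at 6.36, 9.39 and 7.05 CPM in younger and 13.0 and 20.9 CPM in mature females (Unigene126976_FOB; log2 fold change 1.17 ± 0.38 SE, adjusted p = 0.0884), and neither of its 2 unigenes nor any of 8 tudor unigenes passed the edgeR test, with 2 and 3 of them higher at an unadjusted p under 0.05; 2 tudor unigenes were called with TMM factors and 1 by DESeq2. The number of list members higher was 3 without the first-instar, 6 without the second-instar, 3 without the early, 22 without the middle and 7 without the late library. Aubergine lost all 6 calls without the first-instar or the early library, had 3 without the second-instar, 5 without the middle and 4 without the late library. Argonaute-2 had 2 without the first-instar, 4 without the second-instar, 0 without the early, 7 without the middle and 1 without the late library.

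**Figure D3:**
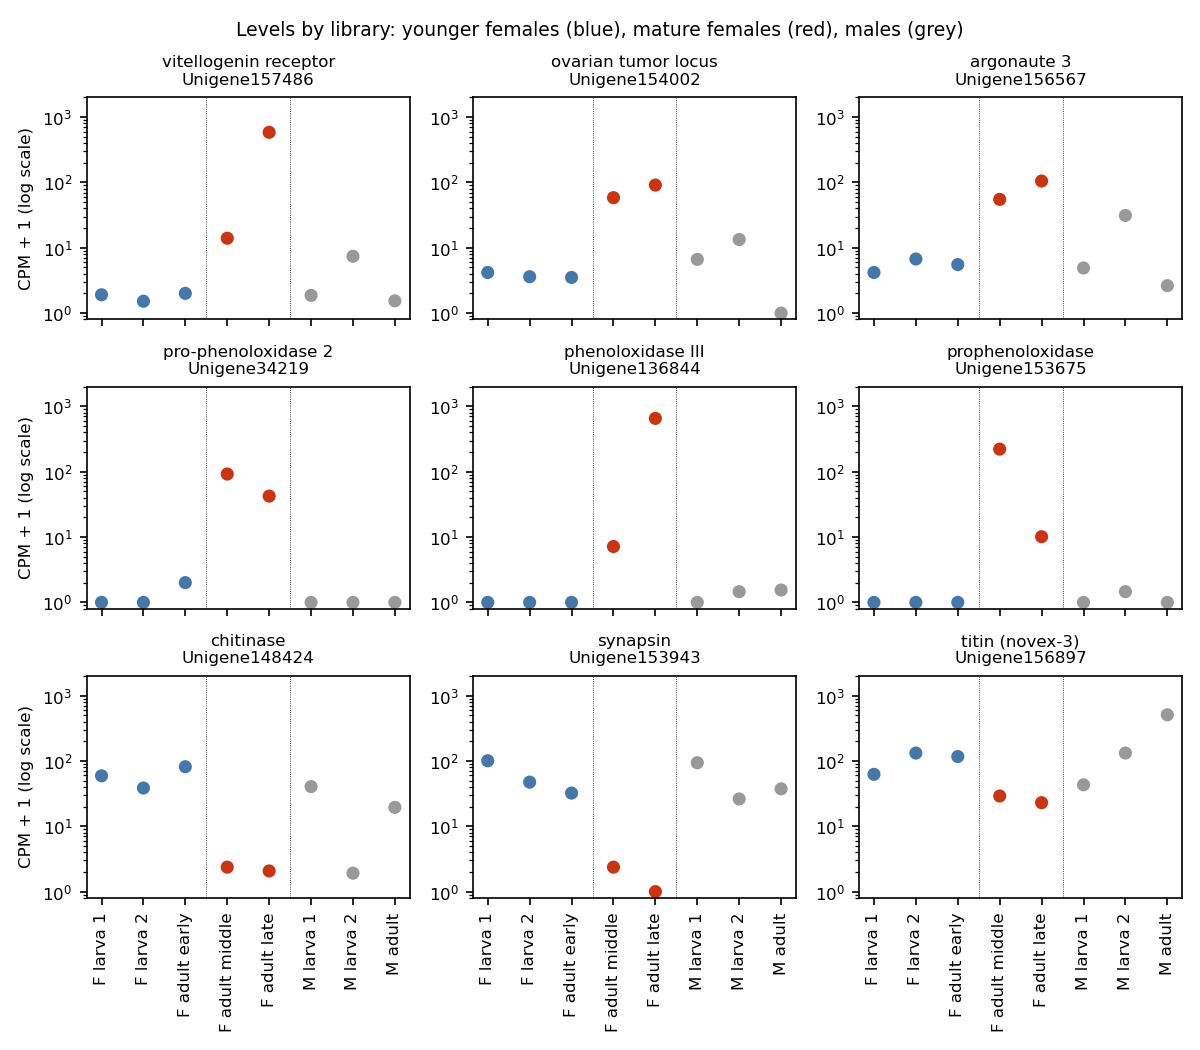
Level of 9 unigenes in each of the 8 libraries (y axis, CPM plus 1 on a log scale; 1 point per library; blue younger females, red mature females, grey males). The top row shows egg and germline unigenes, the middle row phenoloxidases and the bottom row a chitinase, a synapsin and a titin: the red points lie above the blue ones in the upper rows and below them in the bottom row, and in the vitellogenin receptor and 2 of the phenoloxidases the mature libraries lie far apart.

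Early embryonic patterning genes, a possible marker of embryos held by the mother, were called lower more often than higher. Of 56 tested members, 2 were higher (3.57%) and 10 lower (17.9%), beside 3.29% and 6.49% of matched unigenes. The higher share was thus near that of matched unigenes. The median log2 fold change was -0.62, and the list also takes in bicaudal by its spelling. Whether the lower calls bear on embryos or on other tissues was not tested. Homeobox protein cut, a selector of sensory organs and other ectodermal cells in flies, had 5 of 6 tested unigenes lower, which may be pieces of 1 gene. Unigene153257_FOB was at 25.5, 33.9 and 28.2 CPM in younger and 4.11 and 2.68 CPM in mature females (log2 fold change -3.10 ± 0.39 SE, adjusted p = 0.0117). Engrailed-1, a segment polarity factor, had no read in the mature libraries (Unigene150106_FOB, 13.6, 7.30 and 8.56 CPM in younger and 0 and 0 CPM in mature females; at least 5.54-fold lower, adjusted p = 0.0187). The 2 higher members were a LIM homeobox transcription factor (Unigene119109_FOB, 21.4, 44.3 and 32.2 CPM in younger and 93.8 and 85.3 CPM in mature females; log2 fold change 1.46 ± 0.34 SE, adjusted p = 0.0349) and an MSX-1 homeobox protein (Unigene27482_FOB, 5.45, 11.0 and 9.56 CPM in younger and 20.5 and 44.5 CPM in mature females; log2 fold change 1.92 ± 0.44 SE, adjusted p = 0.0336). The number lower was 4 without the first-instar, 7 without the second-instar, 2 without the early, 15 without the middle and 2 without the late library. Leave-one-out counts were 0, 1, 0, 8 and 0 for the higher members and 2, 5, 1, 6 and 1 for cut.

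Cell division and sperm lists held few calls. Of 206 tested cell cycle and DNA replication members, 3 were higher and 2 lower, both shares under those of matched unigenes, with a median of 0.25. A cyclin B1-interacting protein, whose mammalian form acts in meiotic crossing over, was at 0.455, 0.521 and 0.503 CPM in younger and 13.0 and 8.04 CPM in mature females (Unigene146311_FOB; ratio 20.8, counting interval 6.54 to 106, adjusted p = 0.0153). CDC7, a kinase that fires replication origins, was higher (Unigene111660_FOB, log2 fold change 1.40 ± 0.35 SE, adjusted p = 0.0419), as was CDC23, a subunit of the anaphase-promoting complex (Unigene62767_FOB, log2 fold change 1.18 ± 0.30 SE, adjusted p = 0.045). The 2 lower members were activators of cyclin-dependent kinase 5, which acts in neurons rather than in division (Unigene154187_FOB, 82.7, 33.9 and 22.1 CPM in younger and 0 and 0.536 CPM in mature females; ratio 159, counting interval 28.2 to 6282, adjusted p = 0.0156). The number higher was 1 without the first-instar, 2 without the second-instar, 0 without the early, 11 without the middle and 1 without the late library. Of 29 tested sperm and axoneme members, a marker of stored sperm, 0 were higher by edgeR and by DESeq2 (1 at an unadjusted p under 0.05), and 1, matching a sperm autoantigenic protein, was lower (Unigene152142_FOB, 26.8, 18.8 and 29.7 CPM in younger and 4.79 and 2.68 CPM in mature females; log2 fold change -2.76 ± 0.44 SE, adjusted p = 0.0169). Without the early adults it was not called, and 2 members were higher without the middle adults.

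Part of the melanisation enzymes and a clotting protein were called higher in mature females. Prophenoloxidase, the zymogen of the enzyme that makes melanin and hardens wounds and cuticle, had 18 unigenes and 17 tested, of which 6 were higher. At an unadjusted edgeR p under 0.05, 16 were higher and 0 lower. With no filter on low counts, edgeR called 17 of the 18 higher and 1 lower. Summed over the 18, the level was 179, 545 and 443 CPM in younger and 1786 and 2203 CPM in mature females. Both mature libraries were above every younger one, of which first-instar larvae were lowest. Unigene34219_FOB had the widest gap, at 0, 0 and 1.01 CPM in younger and 91.1 and 41.3 CPM in mature females (ratio 193, counting interval 52.7 to 1602, adjusted p = 0.00976). No male library held a read of it. The other high phenoloxidases divided between the mature stages. Unigene153675_FOB had no read in a younger library and stood at 220.4 CPM in the middle and 9.12 CPM in the late library (at least 69.1-fold higher, adjusted p = 0.0332). Unigene136844_FOB, also unread in the younger libraries, stood at 6.16 and 653 CPM (at least 250.1-fold higher, adjusted p = 0.0388), and Unigene50471_FOB at 7.53 and 829 CPM (ratio 1429, counting interval 395 to 11811, adjusted p = 0.0237). So the middle library led in the first of these and the late library in the others, which cannot be tested with 1 library per stage. A further unigene matched to the same protein class, Unigene45582_FOB, was read in the middle library alone among females, at 52.7 CPM (at least 15.7-fold higher), and did not pass the filter. By contrast Unigene57655_FOB was at 58.6, 78.2 and 83.0 CPM in younger and 51.3 and 3.75 CPM in mature females, with the late library far below the rest, and was not called (log2 fold change -1.44 ± 0.80 SE, adjusted p = 0.279).

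Hemolectin, a clotting protein released by haemocytes in flies, had all 4 tested unigenes higher, with log2 fold changes of 2.02 to 2.46. Unigene146619_FOB was at 22.3, 23.5 and 33.7 CPM in younger and 76.0 and 145 CPM in mature females, so the late library was highest (log2 fold change 2.06 ± 0.36 SE, adjusted p = 0.0197). Among males it was at 5.64, 9.62 and 100.5 CPM in first-instar larvae, second-instar larvae and adults, so the adult male library lay between the mature female ones. The immunity and melanisation list had 70 tested members, 14 higher and 9 lower (median log2 fold change 0.62). On the lower side stood 2 C-type lectins, which bind sugars on microbes (Unigene124280_FOB, 21.8, 11.0 and 18.1 CPM in younger and 2.05 and 1.61 CPM in mature females; log2 fold change -3.19 ± 0.54 SE, adjusted p = 0.0184), 2 serpins, which inhibit serine proteases, a lysozyme and 3 unigenes matching toll, the receptor of an antifungal pathway. The list also took in a lower plectin by its spelling. Toll matches went both ways: Unigene36741_FOB was higher (log2 fold change 1.90 ± 0.36 SE, adjusted p = 0.0217) and Unigene156145_FOB lower (log2 fold change -1.53 ± 0.30 SE, adjusted p = 0.0236). A serpin was higher (Unigene139184_FOB, 24.1, 42.8 and 53.9 CPM in younger and 334 and 99.8 CPM in mature females; log2 fold change 2.43 ± 0.55 SE, adjusted p = 0.0327). The number of list members higher was 1 without the first-instar, 4 without the second-instar, 2 without the early, 11 without the middle and 13 without the late library. Members lower numbered 3 without the first-instar, 6 without the second-instar, 1 without the early, 10 without the middle and 3 without the late library. For prophenoloxidase the number higher was 1 without the first-instar, 4 without the second-instar, 1 without the early, 5 without the middle and 7 without the late library, and for hemolectin 0 without the first-instar, 0 without the second-instar, 1 without the early, 4 without the middle and 2 without the late library. A single prophenoloxidase was lower without the middle adults.

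Lipid synthesis genes changed in both directions, with different fatty acid synthase unigenes on each side. Fatty acid synthase, which builds the saturated chains that feed wax, cuticle and storage lipid, had 75 unigenes and 52 tested, of which 8 were higher and 6 lower. Summed over the 75, the level was 1178, 1159.8 and 1029.8 CPM in younger and 1922 and 1599 CPM in mature females. The mature libraries were above the younger ones in the sum, by less than 2-fold. Of the higher unigenes, 4 had no read in any younger library. These passed the filter through the mature libraries alone, so their side was fixed before the test. Unigene152612_FOB stood at 19.2 CPM in the middle and 61.7 CPM in the late library (at least 29.2-fold higher, adjusted p = 0.0156). Unigene153816_FOB stood at 17.1 and 61.7 CPM (at least 28.6-fold higher, adjusted p = 0.0166), Unigene108691_FOB at 15.1 and 46.7 CPM (at least 22.2-fold higher, adjusted p = 0.0164), and Unigene77755_FOB at 9.58 and 18.2 CPM (at least 9.79-fold higher, adjusted p = 0.0173). In each the late library was higher than the middle one, and no male library held more than 1.63 CPM of any of the 4. The other 4 were present throughout and rose, such as Unigene146154_FOB at 15, 23.5 and 20.6 CPM in younger and 88.3 and 68.1 CPM in mature females (log2 fold change 1.99 ± 0.30 SE, adjusted p = 0.0156).

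On the other side, Unigene35408_FOB was at 55.9, 27.1 and 86.6 CPM in the younger libraries and had no read in either mature library (at least 31.5-fold lower, adjusted p = 0.0132). Unigene10473_FOB was also unread in the mature libraries. Both passed the filter through the younger libraries alone, so their side was fixed before the test. Unigene147337_FOB was at 67.7, 44.8 and 39.8 CPM in younger and 6.85 and 4.83 CPM in mature females (log2 fold change -3.12 ± 0.40 SE, adjusted p = 0.0123), and Unigene148608_FOB at 28.6, 26.1 and 30.2 CPM in younger and 4.79 and 0 CPM in mature females (log2 fold change -3.66 ± 0.79 SE, adjusted p = 0.0282). Enzymes that act on the finished chain were divided as well. Elongases, which lengthen fatty acyl chains, summed to 522, 472 and 469 CPM in younger and 325 and 104 CPM in mature females, and 1 of 12 tested was higher and 3 lower. Leave-one-out, 0, 1, 0, 9 and 1 elongases were lower and 0, 0, 0, 1 and 1 higher; without the middle adults the 9 lower were of 13 tested. The most abundant of these 3 in the mature libraries was Unigene100222_FOB, at 134, 87.6 and 82.5 CPM in younger and 28.1 and 11.3 CPM in mature females (log2 fold change -2.38 ± 0.47 SE, adjusted p = 0.0237). Desaturases, which place a double bond, had 2 higher and 2 lower of 15 tested. Matches to the delta-9 type included a higher unigene (Unigene48033_FOB, 15, 18.3 and 11.6 CPM in younger and 45.9 and 72.9 CPM in mature females; log2 fold change 1.99 ± 0.33 SE, adjusted p = 0.0177) and a lower one (Unigene30350_FOB, 55.9, 11.0 and 77.5 CPM in younger and 2.05 and 1.61 CPM in mature females; log2 fold change -4.68 ± 0.96 SE, adjusted p = 0.026). Leave-one-out, 1, 1, 0, 1 and 3 desaturases were higher and 1, 2, 0, 2 and 1 lower, and their median log2 fold change of 1.20 was -1.14 without the middle adults and -0.27 by DESeq2. Fatty acyl-CoA reductase, which makes the long-chain alcohols of wax esters, had 1 of 5 tested unigenes lower (Unigene123710_FOB, 56.4, 42.8 and 49.3 CPM in younger and 15.7 and 10.7 CPM in mature females; log2 fold change -1.91 ± 0.32 SE, adjusted p = 0.0183; leave-one-out 1, 2, 0, 1 and 0). AMP-dependent CoA ligases, which activate fatty acids, had 4 of 25 tested unigenes higher (leave-one-out 1, 2, 0, 5 and 1). The full fatty acid and wax list had 123 tested members, 15 higher and 12 lower, against 3.29% and 6.49% of matched unigenes, with a median of 0.46. The number higher was 7 without the first-instar, 9 without the second-instar, 1 without the early, 22 without the middle and 18 without the late library. For lower members it was 4 without the first-instar, 10 without the second-instar, 2 without the early, 23 without the middle and 6 without the late library. Fatty acid synthases called higher numbered 5 without the first-instar, 6 without the second-instar, 1 without the early, 14 without the middle and 13 without the late library. Those called lower numbered 2 without the first-instar, 5 without the second-instar, 2 without the early, 9 without the middle and 3 without the late library.

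**Figure D4:**
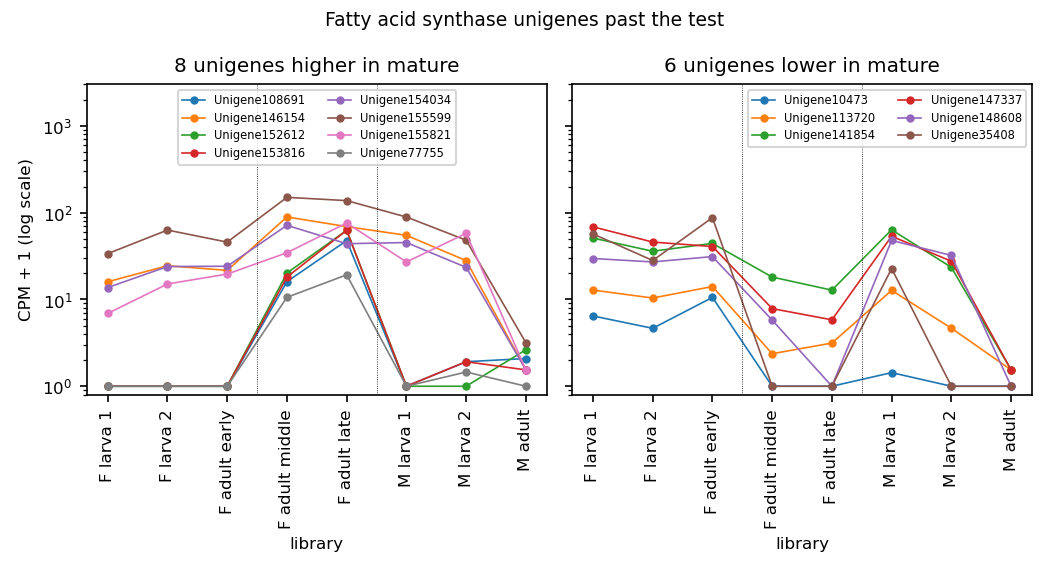
Level of the fatty acid synthase unigenes past the test in each of the 8 libraries (x axis), as CPM plus 1 on a log scale (y axis), 1 line per unigene, with 8 higher in mature females on the left and 6 lower on the right. Points at 1 mark a level of 0: 4 of the unigenes on the left start at 0 in all 3 younger libraries, and Unigene35408 and Unigene10473 on the right are at 0 in both mature ones.

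Juvenile hormone esterases and carboxylesterases were higher in mature females in 12 of 33 and 10 of 30 tested unigenes. Juvenile hormone esterase, which breaks down juvenile hormone, led this group. Unigene121712_FOB was at 23.6, 36.5 and 27.7 CPM in younger and 79.4 and 186 CPM in mature females, with the late library highest (log2 fold change 2.18 ± 0.41 SE, adjusted p = 0.0215). Unigene128712_FOB was at 9.55, 39.6 and 29.2 CPM in younger and 113 and 243 CPM in mature females (log2 fold change 2.77 ± 0.58 SE, adjusted p = 0.0268). Unigene141681_FOB had no read in the younger libraries and stood at 28.8 and 9.65 CPM, here with the middle library higher (at least 12.2-fold higher, adjusted p = 0.0191). Male second-instar larvae, the wax-secreting stage, held Unigene141681_FOB at 48.6 CPM. The total over the 48 unigenes of the family was 464, 612 and 768 CPM in younger and 1209 and 1185 CPM in mature females. In males it was 415, 1089 and 1578 CPM in first-instar larvae, second-instar larvae and adults. Adult males were thus above both mature female libraries. Carboxylesterases are a related family that cleaves esters of many kinds. Esterase E4, named from aphids in which it confers insecticide resistance, was at 0, 0.521 and 0 CPM in younger and 226 and 27.4 CPM in mature females (Unigene154182_FOB; ratio 699, counting interval 125 to 27697, adjusted p = 0.0132). A feruloyl esterase-like protein was at 0, 0.521 and 0 CPM in younger and 79.4 and 22.5 CPM in mature females (Unigene143868_FOB; ratio 290.1, counting interval 51.3 to 11528, adjusted p = 0.0112), and male second-instar larvae held it at 97.2 CPM. The middle library was the higher of the mature pair in both. Of the esterases annotated to juvenile hormone, the number higher was 2 without the first-instar, 7 without the second-instar, 0 without the early, 10 without the middle and 8 without the late library; of the carboxylesterases it was 3 without the first-instar, 5 without the second-instar, 0 without the early, 10 without the middle and 11 without the late library. Without the middle adults, 4 of the former and 2 of the latter were lower.

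Part of the genes of the moulting hormone went the other way. CYP307A1, a cytochrome P450 called Spook in flies and needed for ecdysteroid synthesis, was at 40.9, 27.1 and 23.7 CPM in younger and 0.685 and 0 CPM in mature females (Unigene36940_FOB; ratio 103, counting interval 18.3 to 4088, adjusted p = 0.011), and 2 of its 3 tested unigenes were lower (leave-one-out 1, 1, 1, 2 and 1). The third was not called. Summed over all 4 unigenes of the family, the level was 65.9, 37.5 and 35.7 CPM in younger and 1.37 and 17.2 CPM in mature females. The late library thus kept reads of the family. A hormone receptor of the HR46 (HR3) type, induced by ecdysteroids, was at 68.2, 24.5 and 82.5 CPM in younger and 0 and 2.68 CPM in mature females (Unigene150455_FOB; log2 fold change -5.25 ± 0.89 SE, adjusted p = 0.0186). Ecdysone-induced protein 78C had no read in either mature library in both of its tested unigenes (Unigene149156_FOB, 8.18, 5.21 and 7.55 CPM in younger and 0 and 0 CPM in mature females, at least 3.90-fold lower, adjusted p = 0.0217). Both passed the filter through the younger libraries alone, so their side was fixed before the test. Without the second-instar library 2 were called, without the middle one 2 of 3 tested and without the late one 0, and none passed the filter without the first-instar or the early library. Ecdysone receptor itself had 2 of 4 tested unigenes lower, by less (Unigene116268_FOB, 24.5, 34.4 and 27.7 CPM in younger and 10.3 and 13.4 CPM in mature females; log2 fold change -1.27 ± 0.32 SE, adjusted p = 0.0433). None of these was called by DESeq2 or in any fit that left out 1 library, and 1 was called with TMM factors. The moulting and juvenile hormone list thus held 90 tested members, 12 higher, which were all juvenile hormone esterases, and 9 lower, with a median of 0.11. The number lower was 2 without the first-instar, 6 without the second-instar, 1 without the early, 14 without the middle and 3 without the late library. Members higher numbered 2 without the first-instar, 7 without the second-instar, 0 without the early, 12 without the middle and 8 without the late library.

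Cuticle and chitin genes had the largest share of lower members of the 24 lists in the fit of all 5 libraries. Of 57 tested members, 23 (40.4%) were lower and 2 higher, with a median log2 fold change of -1.49; 1 of the 23 matched naked cuticle, a signalling protein named for a fly phenotype. Osiris proteins, which in flies are expressed in cuticle-secreting cells as they lay down cuticle, had all 6 tested unigenes lower. Their sum was 474, 101 and 363 CPM in younger and 11.0 and 8.58 CPM in mature females, so second-instar larvae were the lowest of the younger libraries and still above both mature ones. Osiris 18 was at 59.5, 7.82 and 71.0 CPM in the younger libraries and unread in the mature ones (Unigene131426_FOB; at least 26.1-fold lower, adjusted p = 0.0281). Chitinases, which digest old cuticle at a moult, had 9 of 21 tested unigenes lower. Unigene148424_FOB was at 58.2, 37.5 and 80.5 CPM in younger and 1.37 and 1.07 CPM in mature females (log2 fold change -5.53 ± 0.56 SE, adjusted p = 0.00976). Chitinase 7 kept a sizeable level and was lower (Unigene157267_FOB, 329, 294 and 428 CPM in younger and 138 and 98.1 CPM in mature females; log2 fold change -1.57 ± 0.40 SE, adjusted p = 0.0426).

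Cuticular proteins, the structural proteins of the exoskeleton, had 7 of 14 tested unigenes lower. Cuticular protein 70 was at 108, 20.3 and 56.9 CPM and unread in the mature libraries (Unigene147188_FOB; at least 35.4-fold lower, adjusted p = 0.0184). Cuticular protein 111 followed the same pattern (Unigene146049_FOB, 31.4, 22.9 and 39.8 CPM in younger and 0 and 0 CPM in mature females; at least 17.4-fold lower, adjusted p = 0.0104), yet adult males held it at 369 CPM. A pupal cuticle protein, Edg-78E, was also unread in mature females (Unigene54197_FOB, 19.5, 15.6 and 17.1 CPM in younger and 0 and 0 CPM in mature females; at least 9.71-fold lower, adjusted p = 0.0113). The 2 higher members of the list were cuticular proteins too. Cuticular protein 144 was at 5.0, 5.74 and 5.54 CPM in younger and 33.5 and 24.7 CPM in mature females (Unigene113742_FOB, log2 fold change 2.41 ± 0.33 SE, adjusted p = 0.0134). An RR-1 motif protein was at 7.73, 4.69 and 6.54 CPM in younger and 28.1 and 17.7 CPM in mature females (Unigene70992_FOB, log2 fold change 1.83 ± 0.38 SE, adjusted p = 0.0268). Of the higher members, 1 was called without the first-instar, 1 without the second-instar and 0 without the early library. The number of list members lower was 12 without the first-instar, 20 without the second-instar, 7 without the early, 29 without the middle and 14 without the late library. For the Osiris proteins it was 2 without the first-instar, 6 without the second-instar, 0 without the early, 6 without the middle and 2 without the late library, and for the chitinases 4 without the first-instar, 6 without the second-instar, 4 without the early, 10 without the middle and 6 without the late library. Leave-one-out, 6, 8, 3, 7 and 5 cuticular proteins were lower.

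Of 120 tested synaptic and channel members, 47 (39.2%) were lower in mature females and 1 was higher, with a median log2 fold change of -1.26. Over the list, the summed level was 3073, 2733 and 2272 CPM in the younger libraries and 1722 and 1635 CPM in the mature ones. Synapsin, which tethers synaptic vesicles, was at 99.5, 46.4 and 31.2 CPM in younger and 1.37 and 0 CPM in mature females in 1 of its 2 unigenes, both lower (Unigene153943_FOB; ratio 101, counting interval 27.7 to 835, adjusted p = 0.0151). Synaptotagmins, the calcium sensors of vesicle release, had 5 of 7 tested unigenes lower, such as Synaptotagmin-10 at 50, 34.9 and 19.1 CPM in younger and 3.42 and 1.07 CPM in mature females (Unigene156923_FOB; log2 fold change -3.98 ± 0.65 SE, adjusted p = 0.0174; leave-one-out 3, 4, 1, 5 and 3). The NMDA-type glutamate receptor 1 was at 45.0, 33.4 and 20.6 CPM in younger and 0.685 and 0.536 CPM in mature females (Unigene142378_FOB; ratio 55.6, counting interval 15.2 to 462, adjusted p = 0.0107), and 7 of 8 tested glutamate receptor unigenes were lower (leave-one-out 4, 4, 4, 8 and 3). Voltage-gated channel subunits, which carry the currents of nerve impulses, had 12 of 23 tested unigenes lower (leave-one-out 5, 7, 4, 14 and 7). The voltage-sensitive sodium channel was at 21.4, 20.3 and 14.6 CPM in younger and 0.685 and 0.536 CPM in mature females (Unigene34781_FOB; ratio 31.3, counting interval 8.48 to 262, adjusted p = 0.011), and a calcium channel of type D at 38.2, 45.9 and 35.2 CPM in younger and 6.16 and 4.83 CPM in mature females (Unigene157297_FOB; log2 fold change -2.85 ± 0.34 SE, adjusted p = 0.0112). Male first-instar larvae and adults held that calcium channel at 47.3 and 60.8 CPM, above every younger female library. The member that rose was a nicotinic acetylcholine receptor alpha 9 subunit, an acetylcholine-gated channel (Unigene157144_FOB, 62.7, 96.5 and 103 CPM in younger and 385 and 179 CPM in mature females; log2 fold change 1.69 ± 0.43 SE, adjusted p = 0.0433), while 2 other nicotinic subunits were lower (leave-one-out 0, 0, 0, 0 and 1 higher and 1, 1, 1, 3 and 0 lower). The number of list members lower was 19 without the first-instar, 25 without the second-instar, 16 without the early, 57 without the middle and 18 without the late library; synapsin had both its unigenes called in each of these fits. Leave-one-out counts of higher members were 0, 0, 0, 4 and 1.

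Sodium/potassium ATPase, the pump that restores ion gradients in nerve, muscle and gut, had 6 of 12 tested unigenes lower, among them Unigene140376_FOB at 14.5, 15.1 and 24.2 CPM in younger and 4.79 and 3.75 CPM in mature females (log2 fold change -2.06 ± 0.44 SE, adjusted p = 0.0278). Without the first-instar, second-instar or early library none was called, and 3 were called without the middle and 1 without the late library. A choline O-acyltransferase was at 49.5, 28.2 and 23.2 CPM in younger and 0.685 and 0.536 CPM in mature females (Unigene156401_FOB; ratio 56.9, counting interval 15.6 to 473, adjusted p = 0.011). Calbindin-32, a calcium-binding protein of neurons and muscle in flies, was at 47.3, 39.6 and 25.2 CPM in younger and 0 and 0.536 CPM in mature females (Unigene122675_FOB; ratio 125, counting interval 22.3 to 4969.9, adjusted p = 0.00991). Vision and chemosensation had 30 tested members, 1 higher and 7 lower, with a median of -0.15. All 4 tested odorant-binding proteins, carriers of odours in sensory organs, were lower (leave-one-out 1, 2, 0, 4 and 2). Odorant-binding protein 4 was at 113, 15.6 and 126 CPM in younger and 0.685 and 0 CPM in mature females (Unigene131504_FOB; ratio 288, counting interval 51.5 to 11403, adjusted p = 0.0199), with the second-instar library the lowest of the younger ones. RpadOBP5 was at 132, 70.9 and 180.2 CPM in younger and 18.5 and 3.75 CPM in mature females (Unigene143110_FOB; log2 fold change -3.55 ± 0.71 SE, adjusted p = 0.0247). Chemosensory protein 9 was lower as well (Unigene149527_FOB, ratio 22.0, counting interval 7.34 to 108, adjusted p = 0.0346). The member that was higher matched pheromone-degrading enzyme 2 (Unigene139104_FOB, 3.64, 8.87 and 9.56 CPM in younger and 26.7 and 29.5 CPM in mature females; log2 fold change 1.94 ± 0.42 SE, adjusted p = 0.0289), and a lower member was a rhodopsin-named peptidyl-prolyl isomerase rather than an opsin (Unigene15121_FOB). Lower members numbered 1 without the first-instar, 4 without the second-instar, 0 without the early, 10 without the middle and 2 without the late library. Leave-one-out counts of higher members were 0, 0, 0, 1 and 0.

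Part of the muscle list was lower. Of 128 tested members, 15 were lower and 4 higher, with a median log2 fold change of -0.82, and the summed level was 2976, 6351 and 5589.8 CPM in the younger libraries and 3248 and 3045 CPM in the mature ones. The classes overlapped in this sum, since the first-instar library lay below both mature ones. Titin, the giant elastic protein of the sarcomere, had 11 of 53 tested unigenes lower (leave-one-out 10, 2, 0, 21 and 3). Unigene156897_FOB was at 61.4, 131 and 116 CPM in younger and 28.1 and 22.0 CPM in mature females (log2 fold change -2.04 ± 0.41 SE, adjusted p = 0.0252). Adult males, which fly, held it at 507 CPM. Myosin light chain kinase was lower (Unigene132221_FOB, 55.0, 54.8 and 61.4 CPM in younger and 17.1 and 16.1 CPM in mature females; log2 fold change -1.78 ± 0.27 SE, adjusted p = 0.0161), as was a troponin C, the calcium switch of the thin filament (Unigene144142_FOB, 16.4, 20.3 and 9.56 CPM in younger and 1.37 and 0 CPM in mature females; ratio 25.6, counting interval 6.89 to 215, adjusted p = 0.0216). None of 12 tested myosin heavy chain unigenes passed the edgeR test or had an unadjusted p under 0.05. All 4 higher members matched muscle-specific protein 300, a nesprin that anchors nuclei and is not specific to sarcomeres (Unigene36459_FOB, 3.18, 7.82 and 8.56 CPM in younger and 14.4 and 45.0 CPM in mature females; log2 fold change 2.20 ± 0.57 SE, adjusted p = 0.0456). Its 19 unigenes summed to 238, 418 and 335 CPM in younger and 399 and 882 CPM in mature females. The number of list members lower was 12 without the first-instar, 4 without the second-instar, 0 without the early, 30 without the middle and 5 without the late library. For higher members it was 0 without the first-instar, 0 without the second-instar, 0 without the early, 8 without the middle and 0 without the late library.

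Calls among proteases lay on both sides, and not every class kept to 1 side. Of 63 tested aminopeptidase unigenes, 2 were higher and 5 lower, with a median log2 fold change of 0.37. Without the second-instar larvae 3 were higher and 2 lower. The list of gut and lysosomal proteases had 115 tested members, 12 higher and 10 lower, with a median of 0.37. Serine carboxypeptidases, lysosomal enzymes that include the vitellogenic carboxypeptidases of insects, had 6 of 11 tested unigenes higher, and leave-one-out 1, 0, 2, 5 and 5. Unigene140890_FOB, matching the CPVL type, was at 0.909, 4.69 and 15.6 CPM in younger and 56.1 and 463 CPM in mature females (log2 fold change 5.20 ± 1.10 SE, adjusted p = 0.0275). Unigene46325_FOB was at 0, 1.56 and 12.6 CPM in younger and 109.5 and 409.7 CPM in mature females (log2 fold change 5.78 ± 1.16 SE, adjusted p = 0.0248). In both the late library was the highest and the early adults were the highest of the younger ones. The 21 serine carboxypeptidase unigenes summed to 105, 152 and 184 CPM in younger and 526 and 1433 CPM in mature females. Cathepsin B, a cysteine protease of lysosomes, had 2 of 10 tested unigenes higher, including Unigene70250_FOB at 21.4, 63.1 and 25.2 CPM in younger and 156 and 181 CPM in mature females (log2 fold change 2.21 ± 0.48 SE, adjusted p = 0.0289; leave-one-out 0, 1, 0, 2 and 0). Trypsin-like digestive proteases were lower in 3 of 7 tested unigenes (leave-one-out 0, 2, 0, 4 and 2). Unigene155528_FOB was at 125, 88.1 and 257 CPM in younger and 2.05 and 22.0 CPM in mature females (log2 fold change -3.66 ± 0.89 SE, adjusted p = 0.0383), and the middle library was below the late one. Molting fluid carboxypeptidase A, which recycles protein of the old cuticle, was at 29.5, 14.6 and 41.3 CPM in younger and 1.37 and 5.36 CPM in mature females (Unigene95674_FOB; log2 fold change -2.99 ± 0.65 SE, adjusted p = 0.0292). The number of list members higher was 1 without the first-instar, 4 without the second-instar, 3 without the early, 18 without the middle and 6 without the late library. Members lower numbered 2 without the first-instar, 6 without the second-instar, 0 without the early, 20 without the middle and 5 without the late library.

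Sugar digestion and transport had 135 tested members, 9 higher and 2 lower, with a median of 0.07. A sugar transporter unread in younger females stood at 58.2 and 26.3 CPM in the mature libraries (Unigene155611_FOB; at least 27.3-fold higher, adjusted p = 0.0117) and at 55.0 CPM in male second-instar larvae. In all, 4 of 43 tested sugar transporters were higher (leave-one-out 1, 1, 1, 2 and 3), and without the middle adults 4 were lower. Acid alpha-glucosidase, a lysosomal enzyme that splits glycogen, had 3 of 6 tested unigenes higher, such as Unigene150982_FOB at 48.6, 70.4 and 60.4 CPM in younger and 138 and 124 CPM in mature females (log2 fold change 1.13 ± 0.29 SE, adjusted p = 0.0458). Leave-one-out, 0, 1, 0, 2 and 0 of them were higher. Trehalose-phosphate synthase, which makes the blood sugar trehalose, had 2 of 9 higher (leave-one-out 0, 1, 0, 5 and 0), and trehalase, which splits it, had 2 of 22 lower (leave-one-out 3, 0, 0, 18 and 0). The trehalase sum was 546, 1385 and 1144 CPM in younger and 717 and 121 CPM in mature females, so the late library was the lowest, the first-instar library was below the middle one, and the classes overlapped. The number higher was 1 without the first-instar, 4 without the second-instar, 1 without the early, 14 without the middle and 4 without the late library. For lower members it was 3 without the first-instar, 0 without the second-instar, 0 without the early, 28 without the middle and 3 without the late library. So lower members outnumbered higher ones without the first-instar or the middle library, and without the latter the median was -0.31.

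Detoxification genes had calls on both sides: of 222 tested members 17 (7.66%) were higher (30 by DESeq2) and 14 (6.31%) lower, with a median of 0.40. Among matched unigenes the shares were 3.29% and 6.49%, so the lower share was near that of matched unigenes. Cytochromes P450, the oxidases of hormones, lipids and plant toxins, made up 12 of the 14 lower members. With the hormone-making CYP307A1 included, 14 of 128 tested P450 unigenes were lower and 5 higher. Leave-one-out, 9, 9, 5, 39 and 7 P450s were lower and 2, 3, 1, 17 and 11 higher, so without the late adults the higher ones were more numerous. Unigene153543_FOB was at 399, 187 and 309 CPM in younger and 7.53 and 0.536 CPM in mature females (log2 fold change -6.26 ± 0.93 SE, adjusted p = 0.0153). Unigene134678_FOB was at 152, 81.4 and 131 CPM in younger and 1.37 and 0 CPM in mature females (ratio 205, counting interval 56.5 to 1694, adjusted p = 0.00976), and male second-instar larvae and adults held it at 0.458 and 0.543 CPM. Of the 5 higher P450s, 3 matched P450 family 4. Unigene147251_FOB was at 4.55, 4.69 and 7.55 CPM in younger and 358 and 57.9 CPM in mature females (log2 fold change 5.20 ± 0.75 SE, adjusted p = 0.0148), and Unigene84058_FOB at 1.82, 3.13 and 4.53 CPM in younger and 268 and 50.4 CPM in mature females (log2 fold change 5.64 ± 0.75 SE, adjusted p = 0.0132). In both the middle library was the higher of the mature pair, and no male library was above 3.47 CPM. The carboxylesterases described above made up most of the higher side, with 2 UDP-glycosyltransferases, which attach sugars to toxins (Unigene114744_FOB, 106, 132 and 147 CPM in younger and 435 and 283 CPM in mature females; log2 fold change 1.48 ± 0.37 SE, adjusted p = 0.0399). The number higher was 5 without the first-instar, 9 without the second-instar, 1 without the early, 41 without the middle and 24 without the late library. Members lower numbered 8 without the first-instar, 9 without the second-instar, 4 without the early, 42 without the middle and 6 without the late library.

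In the ribosome and heat shock lists, 19 of 62 and 8 of 49 tested unigenes were lower, and the share called was larger among those whose best match was to a protein from outside the arthropods, a difference that was not tested. The cytosolic ribosome list had 62 tested members, 0 higher by edgeR and by DESeq2 (1 at an unadjusted p under 0.05) and 19 lower (8 by DESeq2), with a median of -1.37. Summed over all 170 members, tested or not, the level was 2556, 2883 and 2069 CPM in younger and 2873 and 2448 CPM in mature females. The classes overlapped in this sum, so the list as a whole was not lower. The median was 0.106 over the 168 members that DESeq2 tested, and with no filter on low counts edgeR called 13 higher and 31 lower. Of 41 members matched best to arthropods, 7 were lower and the median was 0.06; of the other 21, 12 were lower and the median was -2.24. Ribosomal protein L22, matched to a mollusc, was at 8.64, 16.2 and 12.1 CPM in younger and 1.37 and 0.536 CPM in mature females (Unigene153104_FOB; ratio 13.4, counting interval 4.42 to 66.6, adjusted p = 0.0199). L3, matched to a moth, was at 10, 9.91 and 5.54 CPM in younger and 0.685 and 0 CPM in mature females (Unigene35653_FOB; ratio 28.3, counting interval 4.86 to 1140.1, adjusted p = 0.0248). The heat shock list had 49 tested members, 0 higher by edgeR (1 by DESeq2, 4 at an unadjusted p under 0.05) and 8 lower, with a median of -0.04: 2 of the 39 matched to arthropods (median 0.10) and 6 of the other 10 (median -3.99). A heat shock protein 90 matched best to a slime mould was at 26.4, 104 and 189 CPM in younger and 4.11 and 4.29 CPM in mature females (Unigene157445_FOB; log2 fold change -4.64 ± 0.90 SE, adjusted p = 0.0228), and a heat shock protein 70 matched to an apicomplexan at 54.1, 100.1 and 180.2 CPM in younger and 11.6 and 11.8 CPM in mature females (Unigene156715_FOB; log2 fold change -3.24 ± 0.57 SE, adjusted p = 0.0195). Over all unigenes matched best to protists, 119 were tested, of which 5 were higher and 23 lower (19.3%), against 3.21% and 6.47% among arthropod matches. Protist-matched unigenes took 0.280%, 0.368% and 0.371% of the reads in the younger libraries and 0.290% and 0.377% in the mature ones. Whether these unigenes come from the insect or from another organism was not tested. The number lower was 3 without the first-instar, 4 without the second-instar, 1 without the early, 20 without the middle and 3 without the late library for the ribosome list and 8 without the first-instar, 5 without the second-instar, 1 without the early, 9 without the middle and 2 without the late library for the heat shock list. Without the late adults 3 ribosomal members were higher, and without the middle adults 2 heat shock members.

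Other housekeeping lists held few calls. Mitochondrial respiration had 37 tested members, 0 higher by edgeR and by DESeq2 (2 at an unadjusted p under 0.05) and 1 lower, an ATP synthase beta subunit whose match names no species (Unigene36902_FOB, 23.2, 27.6 and 31.7 CPM in younger and 4.11 and 1.07 CPM in mature females; log2 fold change -3.45 ± 0.52 SE, adjusted p = 0.0157), and its median was 0.03. Without the early adults it was not called, and 1 member was higher without the middle adults. Protein folding and secretion had 106 tested members, 0 higher by edgeR (1 by DESeq2, 11 at an unadjusted p under 0.05) and 4 lower, with a median of 0.43. A protein disulfide-isomerase, which forms disulfide bonds in secreted proteins, was at 52.7, 85.5 and 76.0 CPM in younger and 28.1 and 12.3 CPM in mature females (Unigene135574_FOB; log2 fold change -1.83 ± 0.43 SE, adjusted p = 0.0343). Lower members of this list numbered 1 without the first-instar, 1 without the second-instar, 0 without the early, 4 without the middle and 0 without the late library. Higher ones numbered 0 without the first-instar, 0 without the second-instar, 0 without the early, 8 without the middle and 1 without the late library, so the higher side had more calls without either mature library. Of 6 host plant and microbe list members tested, 0 were called by edgeR, DESeq2 or edgeR with no filter on low counts, 1 was higher at an unadjusted p under 0.05, and the most abundant matched an insect gram-negative bacteria-binding protein (Unigene140965_FOB, 44.1, 47.5 and 71.5 CPM in younger and 76.0 and 38.1 CPM in mature females; log2 fold change 0.06 ± 0.38 SE, adjusted p = 0.93).

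Insulin, TOR and growth signalling had 149 tested members, 3 higher and 5 lower, below the shares of matched unigenes, with a median of 0.28. An insulin receptor tyrosine kinase substrate had all 3 tested unigenes lower, such as Unigene127108_FOB at 65.5, 44.8 and 46.3 CPM in younger and 17.1 and 20.4 CPM in mature females (log2 fold change -1.47 ± 0.31 SE, adjusted p = 0.0276; leave-one-out 0, 3, 0, 2 and 1). Of 15 tested phosphatidylinositol 3-kinase unigenes, 2 were far lower, and Unigene34461_FOB was at 50.9, 36.5 and 57.9 CPM in younger and 0.685 and 0 CPM in mature females (ratio 162, counting interval 28.8 to 6411, adjusted p = 0.00933). Target of rapamycin, the kinase that ties growth to nutrients, was higher in 1 of 16 tested unigenes (Unigene151420_FOB, 14.1, 13.0 and 11.6 CPM in younger and 37.0 and 29.0 CPM in mature females; log2 fold change 1.34 ± 0.29 SE, adjusted p = 0.0281; leave-one-out 0, 0, 0, 0 and 1). The Hippo kinase LATS1 was at 1.82, 2.09 and 3.52 CPM in younger and 11.6 and 11.8 CPM in mature females (Unigene32112_FOB; log2 fold change 2.22 ± 0.47 SE, adjusted p = 0.027), and all male libraries were higher still, at 76.0, 37.6 and 21.2 CPM in first-instar larvae, second-instar larvae and adults. The number lower was 2 without the first-instar, 5 without the second-instar, 2 without the early, 7 without the middle and 3 without the late library. For higher members it was 0 without the first-instar, 0 without the second-instar, 0 without the early, 3 without the middle and 1 without the late library.

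Among unigenes with the widest gap between classes, several enzymes were at or near 0 in younger females and abundant in mature ones. A firefly luciferase-like protein, a member of the enzyme superfamily that joins fatty acids to coenzyme A, was unread in all younger libraries and stood at 92.4 and 56.3 CPM in the mature ones (Unigene155797_FOB; at least 49.0-fold higher, adjusted p = 0.00964). Male second-instar larvae held it at 93.5 CPM and the other males held none. Glucose dehydrogenase, an oxidoreductase of cuticle and reproductive tract in flies, was at 0.455, 0.521 and 1.01 CPM in younger and 70.5 and 34.9 CPM in mature females (Unigene152876_FOB; log2 fold change 6.18 ± 0.52 SE, adjusted p = 0.00761). A short-chain dehydrogenase/reductase was at 0, 0.521 and 1.01 CPM in younger and 166 and 25.7 CPM in mature females (Unigene115428_FOB; ratio 178, counting interval 60.3 to 868, adjusted p = 0.0137), and at 344 CPM in male second-instar larvae. An endothelial lipase, which splits fat and phospholipid, was unread in younger females and at 37.7 and 13.4 CPM in mature ones (Unigene128886_FOB; at least 16.3-fold higher, adjusted p = 0.0167). Aldehyde dehydrogenase 7A1, an enzyme of lysine breakdown and aldehyde clearance, was at 7.27, 25.6 and 18.1 CPM in younger and 355 and 555 CPM in mature females (Unigene95046_FOB; log2 fold change 4.74 ± 0.56 SE, adjusted p = 0.0112). It and unigenes of the same family named antiquitin summed to 32.3, 99.6 and 82.0 CPM in younger and 727 and 1157 CPM in mature females, and 3 of 5 tested were higher (leave-one-out 2, 2, 1, 4 and 2). A protein matching rent1, the helicase of nonsense-mediated mRNA decay, was at 0, 0 and 0.503 CPM in younger and 35.6 and 127 CPM in mature females (Unigene155968_FOB; ratio 529, counting interval 94.1 to 20954, adjusted p = 0.00976). The late library was the higher of the mature pair for rent1 and aldehyde dehydrogenase 7A1, and the middle library for the others. Without the early adults the short-chain dehydrogenase/reductase and the endothelial lipase were not called, and the other unigenes of this paragraph were called in every fit that left out 1 library.

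On the lower side the widest gap was in a protein matching p270 (Unigene157219_FOB, 308, 254 and 245 CPM in younger and 1.37 and 0.536 CPM in mature females; ratio 299.97, counting interval 102 to 1456, adjusted p = 0.00703). A Patched-related protein, of the family of sterol-sensing membrane proteins, was at 192, 93.9 and 199 CPM in younger and 0.685 and 1.07 CPM in mature females (Unigene35956_FOB; ratio 181, counting interval 61.9 to 881, adjusted p = 0.00784). Farnesyl-pyrophosphate synthetase, which makes the precursor of juvenile hormone and other isoprenoids, was at 38.6, 32.9 and 22.6 CPM and unread in the mature libraries (Unigene34114_FOB; at least 17.5-fold lower, adjusted p = 0.0102). An ABC transporter was at 30.0, 27.1 and 33.7 CPM in younger and 0.685 and 0.536 CPM in mature females (Unigene118208_FOB; ratio 50.4, counting interval 13.8 to 419, adjusted p = 0.00784). The younger libraries lay within a 3-fold range of each other in each of these, and both mature libraries were at 1.37 CPM or less. Laeverin, an aminopeptidase, was at 56.8, 29.2 and 26.2 CPM in younger and 0.685 and 0.536 CPM in mature females (Unigene152058_FOB; ratio 63.5, counting interval 17.4 to 527, adjusted p = 0.011), and a serine-enriched protein at 74.5, 45.4 and 36.2 CPM in younger and 0.685 and 0 CPM in mature females (Unigene156031_FOB; ratio 176, counting interval 31.4 to 6971, adjusted p = 0.01). Adult males held laeverin at 106 CPM, so its low level was not shared by adults of both sexes. All 6 of these unigenes were called lower in every fit that left out 1 library.

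The most abundant unigene called higher had no protein match: Unigene22516_FOB was at 0.909, 7.82 and 3.02 CPM in younger and 3767 and 3087 CPM in mature females (log2 fold change 9.77 ± 0.94 SE, adjusted p = 0.00964). Both mature libraries were near each other, and male second-instar larvae held 191 CPM. Unigene110125_FOB, also without a match, was at 0, 0 and 1.01 CPM in younger and 7.53 and 2757 CPM in mature females (ratio 4729, counting interval 1308 to 39059, adjusted p = 0.0247), so nearly all of its reads came from the late library. Among unmatched unigenes called lower, Unigene140875_FOB was at 438, 237 and 294 CPM in younger and 33.5 and 1.07 CPM in mature females (log2 fold change -4.25 ± 1.10 SE, adjusted p = 0.0459), and the middle library lay between the younger ones and the late one. These were chosen after their values were seen. Across the 1517 higher calls, the late library was at least 4-fold above the middle one in 135 and the middle at least 4-fold above the late one in 72, with 1 CPM added. Across the 4072 lower calls, the middle library was at least 4-fold above the late one in 139 and the reverse held in 10. These counts describe single libraries and have no test.

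**Figure D5:**
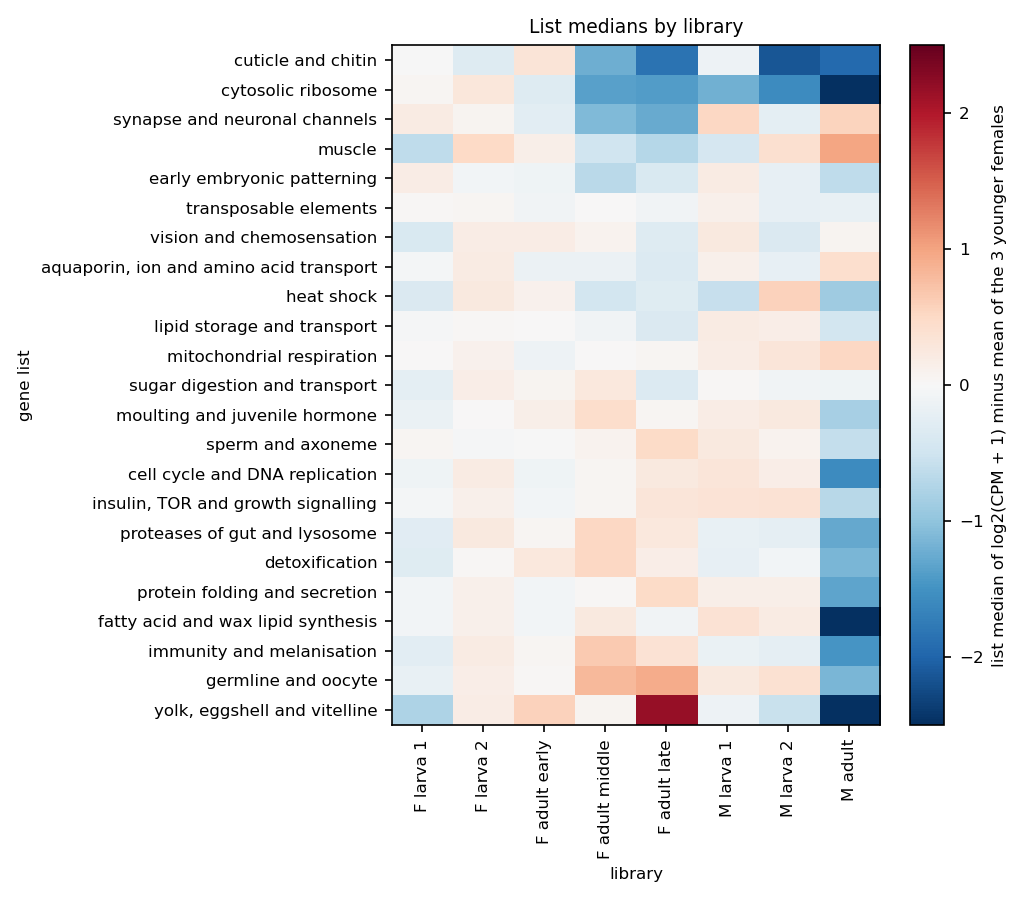
Median level of each gene list in each of the 8 libraries (columns; rows ordered by median log2 fold change), shown as the list median of log2(CPM + 1) minus its mean in the 3 younger female libraries, with red above and blue below and values past the ends of the scale in the end colour. The cuticle, ribosome and synapse rows are blue in both mature columns, the yolk row is deepest red in late adults alone, and the germline row is red in both.

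Male libraries were set beside the calls as a description. A male library counted as on the mature side when it reached the mature level nearest to the younger ones. Any other level counted as on the younger side, including levels between the classes, so these counts do not say that males matched younger females. Of the 1517 unigenes higher in mature females, 1118 (73.7%) had all 3 male libraries on the younger side. Male second-instar larvae lay on the mature side in 255 (16.8%), male adults in 162 (10.7%) and male first-instar larvae in 38 (2.5%). Of the 4072 lower unigenes, 2364 (58.1%) had all male libraries on the younger side, and male adults lay on the mature side in 1207 (29.6%), second-instar males in 836 (20.5%) and first-instar males in 290 (7.12%). The luciferase-like protein, the sugar transporter, the endothelial lipase and the feruloyl esterase-like protein were among those that male second-instar larvae held at or above the lower of the mature levels. Unigene153943_FOB (synapsin), Unigene156897_FOB (titin) and Unigene157297_FOB (calcium channel) were lower in both mature libraries than in males of every stage. Summed titin was not, since middle adults were at 1316 CPM and male first-instar larvae at 1296 CPM.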

How the data were processed

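Total RNA of insects, with no dissection named in the labels, was sequenced, with 1 library per sex and stage and 8 in all, and the authors deposited 1 table per library. Per the file headers, each table gives the count of uniquely mapped reads per unigene, the RPKM computed by the authors and the percent coverage of the unigene; the deposited RPKM and percent coverage were not used in the tests. Settings of the assembly, alignment and counting are stated in neither the labels nor the headers. Tables were joined by unigene, a missing unigene was taken as 0 reads, and counts were scaled by the header totals, 1.46 to 2.2 M reads in the 5 female libraries. The 2 mature libraries were compared with the 3 younger ones with edgeR 4.0.16 (quasi-likelihood test, filterByExpr, adjusted p under 0.05, R 4.3.3). Standard errors were backed out of the quasi-likelihood F statistic. The fit has 3 residual degrees of freedom, which come from differences between stages. DESeq2 1.42.0 was an alternative. Tested on simulated counts, the fit recovered 10%, 40%, 90% and 100% of unigenes changed 2-fold, 4-fold, 8-fold and 16-fold. The simulation gave the libraries of a class the same mean level per unigene and every unigene the same coefficient of variation, 0.33. Unigenes whose stages differ by more within a class were not simulated, so the recovery for those is not known. Intervals and the limit at 0 reads (3 reads) cover counting error only. Gene names are the best protein matches in the deposited tables, found for 29028 of 147509 unigenes.

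The comparison, members, gene lists and families were chosen with earlier results of these data known, and families, the argonautes and unmatched unigenes after their values were seen. Named genes were, in each direction, the 15 matched unigenes with the widest gap and up to 4 members of each list with the lowest p, or the most abundant where none passed; other named unigenes belong to the families. No sequence is shown.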

Additional observations from a re-analysis of the deposited data

How the results depend on the processing

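The number of unigenes higher (1517) and lower (4072) was within 1.5 times under TMM factors (1646 and 3593), DESeq2 size factors (1644 and 3620), the DESeq2 test (1901 and 3383) and a minimum of 20 reads (1189 and 2729). With no filter on low counts it was 4605 and 9195. Leaving out 1 library gave 163 to 3246 higher and 496 to 6262 lower, and 12 to 231 list members higher and 42 to 363 lower, against 124 and 225; fewer libraries also leave fewer degrees of freedom. By side alone, 8389 higher and 11153 lower became 1904 and 1771 with at least 100 reads, where the higher side was the larger, and 16768 and 29189 with at least 1 read, and leaving out 1 library gave 9343 to 14038 higher, the most without the middle adults, and 10941 to 15966 lower. For the 4-fold gap, 364 higher and 1316 lower became 160 and 388 with at least 100 reads, 113 and 248 with 5 CPM added and 1169 and 3905 at 2-fold. Leaving out 1 library gave 380.0 to 1335 higher (1335 without the middle and 620.0 without the late adults) and 1274 to 3450 lower (3450 without the middle adults and 2060 without the second-instar larvae). The cause of these moves was not tested. No named unigene past the test changed sign. Leaving out a library could not have changed it, since both mature libraries of each lay on 1 side of the younger ones. Lists did turn: in 10 of the 24 lists and 8 of 61 families the side with more calls turned under at least 1 alternative. The sugar list, 9 higher and 2 lower, was 14 and 28 without the middle adults and 1 and 3 without the first-instar larvae. P450s, 5 and 14, were 11 and 7 without the late adults. Protein folding, 0 and 4, was 8 and 4 without the middle adults, and proteases, 12 and 10, were 11 and 15 by DESeq2. The fatty acid, detoxification, immunity, hormone, cell cycle, sperm and ion transport lists turned in fits that left out 1 library. List medians turned sign in 9 lists and 11 families, and the ribosome median of -1.37 was 0.106 by DESeq2, which tested 168 members in place of 62. For the yolk list, 3 higher and 0 lower became 17 and 1 with no filter on low counts and 16 and 1 without the middle adults, and 0 and 0 without any 1 of the younger libraries. Of 147 named unigenes, 92 were still tested but no longer past the test without the early adults, and 51 stayed past it. The same loss was 50 without the first-instar larvae and 38 without the second-instar larvae. It was 11 with DESeq2, 16 with a minimum of 20 reads and 2 with TMM factors. Unigenes that were no longer tested are not in these losses. Of the 1517 higher unigenes, 1513 were also called under TMM, 1306 by DESeq2 and 161 without the early adults. Setting unigenes with 0 reads in a class at their bound changed none of the 24 list medians. No paired analysis was possible because each stage has 1 library and replicate numbers follow accession order only.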

Other observations

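Transposable element unigenes moved in both directions. Of 167 tested members 10 were higher and 5 lower, with a median log2 fold change of -0.24, beside 3.29% and 6.49% of matched unigenes. Pao elements, retrotransposons found in many animals, had 3 of 10 tested unigenes higher, and 0 without the early adults. Unigene114853_FOB was at 3.18, 1.56 and 3.52 CPM in younger and 19.2 and 53.1 CPM in mature females (log2 fold change 3.68 ± 0.54 SE, adjusted p = 0.0151), and the late library was the highest. A Tigger-derived unigene, of a DNA transposon family, stood at 1.36, 1.56 and 2.01 CPM in younger and 18.5 and 39.2 CPM in mature females (Unigene12_FOB; log2 fold change 4.09 ± 0.48 SE, adjusted p = 0.0112). A POGO family transposase was lower, at 8.18, 15.1 and 36.2 CPM in younger and 0.685 and 0 CPM in mature females (Unigene7473_FOB; ratio 64.8, counting interval 11.4 to 2582, adjusted p = 0.0249). The number higher was 4 without the first-instar, 5 without the second-instar, 1 without the early, 14 without the middle and 7 without the late library. Lower members numbered 1 without the first-instar, 2 without the second-instar, 0 without the early, 6 without the middle and 0 without the late library.

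Lipid storage and transport had 83 tested members, 3 higher (3.61%) and 15 lower (18.1%), with a median of 0.02. Among matched unigenes the shares were 3.29% and 6.49%, so the higher share was near that of matched unigenes. A 2-acylglycerol O-acyltransferase, which joins acyl chains to glycerol, was lower, at 9.55, 8.87 and 5.54 CPM in younger and 0 and 0 CPM in mature females (Unigene151503_FOB; at least 4.45-fold lower, adjusted p = 0.0206). Lipases, which split fat, lay on both sides. A pancreatic-type triacylglycerol lipase was at 1.36, 7.82 and 4.03 CPM in younger and 74.6 and 56.8 CPM in mature females (Unigene119494_FOB; log2 fold change 3.90 ± 0.52 SE, adjusted p = 0.0132), and Lipase 3 was at 16.8, 38.6 and 43.3 CPM in younger and 2.74 and 0 CPM in mature females (Unigene151778_FOB; log2 fold change -4.66 ± 0.87 SE, adjusted p = 0.0216). The lipophorin receptor, which takes up lipid carriers from haemolymph, was lower (Unigene58359_FOB, 9.09, 13.0 and 9.06 CPM in younger and 2.05 and 2.15 CPM in mature females; log2 fold change -2.27 ± 0.50 SE, adjusted p = 0.0304). The number lower was 5 without the first-instar, 7 without the second-instar, 1 without the early, 23 without the middle and 6 without the late library. Higher members numbered 2 without the first-instar, 3 without the second-instar, 0 without the early, 14 without the middle and 4 without the late library. Ion and amino acid transport had 86 tested members, 3 higher (3.49%) and 8 lower (9.30%), with a median of -0.07. The higher share was near the 3.29% of matched unigenes. The lower share was near the 8.87% of all unigenes tested and above the 6.49% of matched ones. All 3 higher members were amino acid transporters, such as Unigene108021_FOB at 29.5, 45.9 and 36.2 CPM in younger and 71.9 and 109.9 CPM in mature females (log2 fold change 1.29 ± 0.32 SE, adjusted p = 0.04), while 6 of the 8 lower ones were sodium/potassium pumps. The lower count went with the libraries: 2 without the first-instar, 2 without the second-instar, 2 without the early, 11 without the middle and 2 without the late library. For the higher count it was 0 without the first-instar, 0 without the second-instar, 0 without the early, 2 without the middle and 3 without the late library.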
